A study of Mus musculus with 8 samples.

Results

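The IL-1 family and inflammasome genes described here are the interleukin-1 ligands Il1a and Il1b, the receptor antagonist Il1rn, the signalling receptor Il1r1, the decoy receptor Il1r2, the related cytokines Il18 and Il33, the IL-33 receptor Il1rl1, the sensor Nlrp3 and the protease Casp1. They were taken by symbol from the deposited count table. All 10 were found among its 48587 symbols, and 9 of them had enough counts to be tested, the exception being Il1a.

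Interleukin-1 is a pair of cytokines, IL-1α and IL-1β, that bind one receptor, IL1R1, and through MYD88 and the IRAK kinases switch on NF-kB and its target genes. The receptor antagonist encoded by Il1rn occupies that receptor without signalling, and the decoy receptor encoded by Il1r2 binds the cytokine without passing the signal on. IL-1β and IL-18 are made as inactive precursors that caspase-1 cuts once an inflammasome, such as the one built around NLRP3, has assembled, so transcript counts say nothing of how much active cytokine was released. IL-33 is stored in the nuclei of stromal and endothelial cells and acts on cells that carry the receptor ST2, the product of Il1rl1. In the artery wall, macrophages are a known source of IL-1β, and smooth muscle cells are known to respond to it.

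RNA was sequenced from the whole aortic tree of mice in 4 groups of 2 libraries. The groups were mice with a Tet2 knockout specific to vascular smooth muscle cells given VitD (vitamin D), the same genotype given vehicle, wild-type (WT) litter controls given VitD, and WT litter controls given vehicle. The series asks how TET2, which converts methylcytosine in DNA to oxidised forms, bears on osteogenic change of smooth muscle cells and calcification of the aortic media. The driver of the knockout, the strain, age and sex of the mice, the dose and length of treatment and the number of mice per library are given neither in the labels nor in the design text. No label says whether replicate libraries stem from different mice, so the p-values measure the spread between libraries, which may be technical.

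The libraries held 15679274 to 22332149 counts each. Values are given as CPM, TMM-normalised counts scaled to a fixed library size, and for each gene the libraries are named in the order replicate 1, replicate 2. Tet2 stood at 26.6 and 37.6 CPM in Tet2KO VitD, 42.0 and 35.2 CPM in Tet2KO vehicle, 18.3 and 20.0 CPM in WT VitD and 35.8 and 32.2 CPM in WT vehicle. By group, the libraries labelled Tet2 knockout thus had no less Tet2 than WT under the same treatment, with overlap between genotypes under vehicle. Counts from whole tissue cannot settle a knockout specific to smooth muscle cells, so every genotype direction below rests on the labels. The labelled tissue was borne out by smooth muscle markers, with Acta2 at 7567 to 14689 CPM across the 8 libraries. The library names in the labels carry numbers in 2 separate ranges, with both WT VitD libraries and replicate 1 of Tet2KO VitD in the higher range and the other 5 in the lower. The labels do not call these ranges batches. In WT the range and the treatment cannot be told apart, because every VitD library lies in one range and every vehicle library in the other.

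On mm10 (GENCODE M21), 3 of the receptors lie on the plus strand of chromosome 1 in one cluster with related receptor genes, in the order Il1r2 (chr1:40074079-40125231), Il1r1 (chr1:40225080-40317257), Il1rl2 (chr1:40324610-40367562), Il1rl1 (chr1:40429570-40465415), Il18r1 (chr1:40465552-40500854) and Il18rap (chr1:40515362-40551705). Il1a (chr2:129299610-129309972) and Il1b (chr2:129364570-129371139) are neighbours on the minus strand of chromosome 2, where Il1rn (chr2:24336853-24351494) lies far away on the plus strand. Casp1 (chr9:5298517-5307265) and Il18 (chr9:50554827-50581840) are on chromosome 9, Nlrp3 (chr11:59541568-59566956) on chromosome 11 and Il33 (chr19:29925114-29960718) on chromosome 19, all on the plus strand. An antisense transcript, Il1bos, shares 25 exonic bases with Il1b on the other strand, and Gm14023 shares 222 with Il1a. Whether counting used strand is not stated in the labels, but Il1bos itself had only 0 to 4 counts per library.

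The promoter windows of the 5 genes with the largest responses to VitD in WT are shown, because these genes moved together. Each window runs from 250 bases before to 50 bases after a RefSeq start site (GRCm38.p6, the build also called mm10), 5′ to 3′ on the gene's own strand, and covers part of the first exon. The windows are Il1b at chr2:129371090-129371389 (minus strand), the most upstream of several Il1rn starts at chr2:24336610-24336909, Il1r2 at chr1:40085843-40086142, the downstream of a pair of Il33 starts at chr19:29945540-29945839 and the upstream of a pair of Nlrp3 starts at chr11:59541319-59541618 (all plus strand). The Il1rn and Nlrp3 windows not shown had no match to the motifs searched, and that of Il33 had TATAAA. Capitals mark motif matches. They are TATAAA in Il1b, the AP-1 motif TGANTCA in Il1rn, both copies of the E-box CACGTG in Il1r2, the C/EBP motif TTGCNNAA and TATAAA in Il33, and the NF-kB motif in Nlrp3.
Il1b: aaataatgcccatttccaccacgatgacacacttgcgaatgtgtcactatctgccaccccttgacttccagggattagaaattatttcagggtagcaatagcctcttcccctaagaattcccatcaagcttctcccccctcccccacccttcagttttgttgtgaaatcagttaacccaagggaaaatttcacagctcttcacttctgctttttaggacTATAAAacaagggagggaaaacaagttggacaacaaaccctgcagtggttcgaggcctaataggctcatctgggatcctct
Il1rn: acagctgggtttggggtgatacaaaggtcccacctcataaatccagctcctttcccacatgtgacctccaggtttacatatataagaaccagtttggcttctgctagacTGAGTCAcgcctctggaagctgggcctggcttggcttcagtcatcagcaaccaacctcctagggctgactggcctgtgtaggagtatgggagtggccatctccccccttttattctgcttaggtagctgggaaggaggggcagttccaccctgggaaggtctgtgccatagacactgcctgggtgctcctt
Il1r2: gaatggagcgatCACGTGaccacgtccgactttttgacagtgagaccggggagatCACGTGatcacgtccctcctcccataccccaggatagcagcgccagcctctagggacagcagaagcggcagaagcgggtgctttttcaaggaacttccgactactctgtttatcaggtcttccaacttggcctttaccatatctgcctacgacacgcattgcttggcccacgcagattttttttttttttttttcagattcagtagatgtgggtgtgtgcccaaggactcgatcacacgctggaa
Il33: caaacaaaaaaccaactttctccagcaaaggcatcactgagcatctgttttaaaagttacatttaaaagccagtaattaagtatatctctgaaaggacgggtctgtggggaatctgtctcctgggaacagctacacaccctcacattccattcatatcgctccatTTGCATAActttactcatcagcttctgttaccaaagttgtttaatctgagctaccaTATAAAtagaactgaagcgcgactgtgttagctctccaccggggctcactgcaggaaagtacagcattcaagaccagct
Nlrp3: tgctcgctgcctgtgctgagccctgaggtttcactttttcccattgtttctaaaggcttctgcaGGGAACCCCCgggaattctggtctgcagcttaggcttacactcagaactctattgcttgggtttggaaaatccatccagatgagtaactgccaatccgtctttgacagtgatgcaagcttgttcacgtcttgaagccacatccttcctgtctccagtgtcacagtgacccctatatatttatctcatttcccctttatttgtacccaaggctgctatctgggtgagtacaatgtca
TATAAA began at -31 from the start in Il1b and at -29 in Il33, the usual place of a TATA box. The AP-1 motif was at -141 in Il1rn, the E-box at -238 and -195 in Il1r2, the C/EBP motif at -85 in Il33 and the NF-kB motif at -186 in Nlrp3. Across the 16 RefSeq windows of the 10 genes, the TATA motif (searched on the gene's strand) was in 4, the C/EBP motif in 3, and the AP-1, E-box and NF-kB motifs (both strands) in 2 each. Among 32851 mouse promoter windows of the same length the shares were 8.32% for the TATA motif, 10.8% for C/EBP, 7.81% for AP-1, 7.15% for the E-box and 4.51% for NF-kB. A direct repeat of AGNTCA spaced by 3 bases, the type bound by the vitamin D receptor, was in 0 of the 16 and in 0.07% of all windows. A match describes letters only, and its absence says nothing of a factor's binding elsewhere.

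VitD in WT aorta went with higher transcripts of both sides of the IL-1 system, the agonist and its natural brakes. Il1b, Il1rn, Il1r2, Il33, Nlrp3 and Casp1 rose, while Il1r1, Il18 and Il1rl1 did not pass the test and Il1a was close to the limit of detection. The rises ran from 1.94-fold for Casp1 to 56.9-fold for Il1r2. In edgeR's quasi-likelihood test, with p adjusted by the Benjamini-Hochberg method over 16194 genes and a threshold of 0.05, 6 of the 10 genes were called higher, against a background of 10.6% of all genes tested. The median log2 fold change of the 9 tested genes was 2.69, beside -0.03 over all genes. Il1r2 passed the filter on low counts only through the VitD libraries. Its place among the 6 called genes and in the median thus already depended on its level there. The calls apart from it were Il1b, Il1rn, Il33, Nlrp3 and Casp1, with Il1rn the largest of these at 19.9-fold. Il1b, Il1rn and Nlrp3 were over the filter limit in 3 of the 4 vehicle libraries.

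In the aorta labelled Tet2 knockout, VitD went with smaller differences in the same genes, and none passed the test. The fold changes of Il1r2 and Il33 were 9.94 and 3.48, and all 9 tested genes, Il1r2 being tested only through its VitD libraries, had a log2 fold change above 0, with a median of 1.06 beside -0.01 over all genes. By edgeR 0 of the 10 genes were called, against a background of 0.179% called higher. At an unadjusted p under 0.05 there were 5 (Il1b, Il1rn, Il1r2, Il33 and Nlrp3), where 8.65% of all genes were higher. DESeq2 called 2 of them, Il33 (adjusted p = 7.22e-05) and Il1r2 (adjusted p = 0.000984), and edgeR without the filter on low counts called 4. In libraries rather than tests, VitD and vehicle did not overlap for 7 of the 10 genes in Tet2KO (23.7% of all genes tested were higher without overlap) and for 8 of the 10 in WT (33.8%). Both counts include Il1r2.

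**Figure D1:**
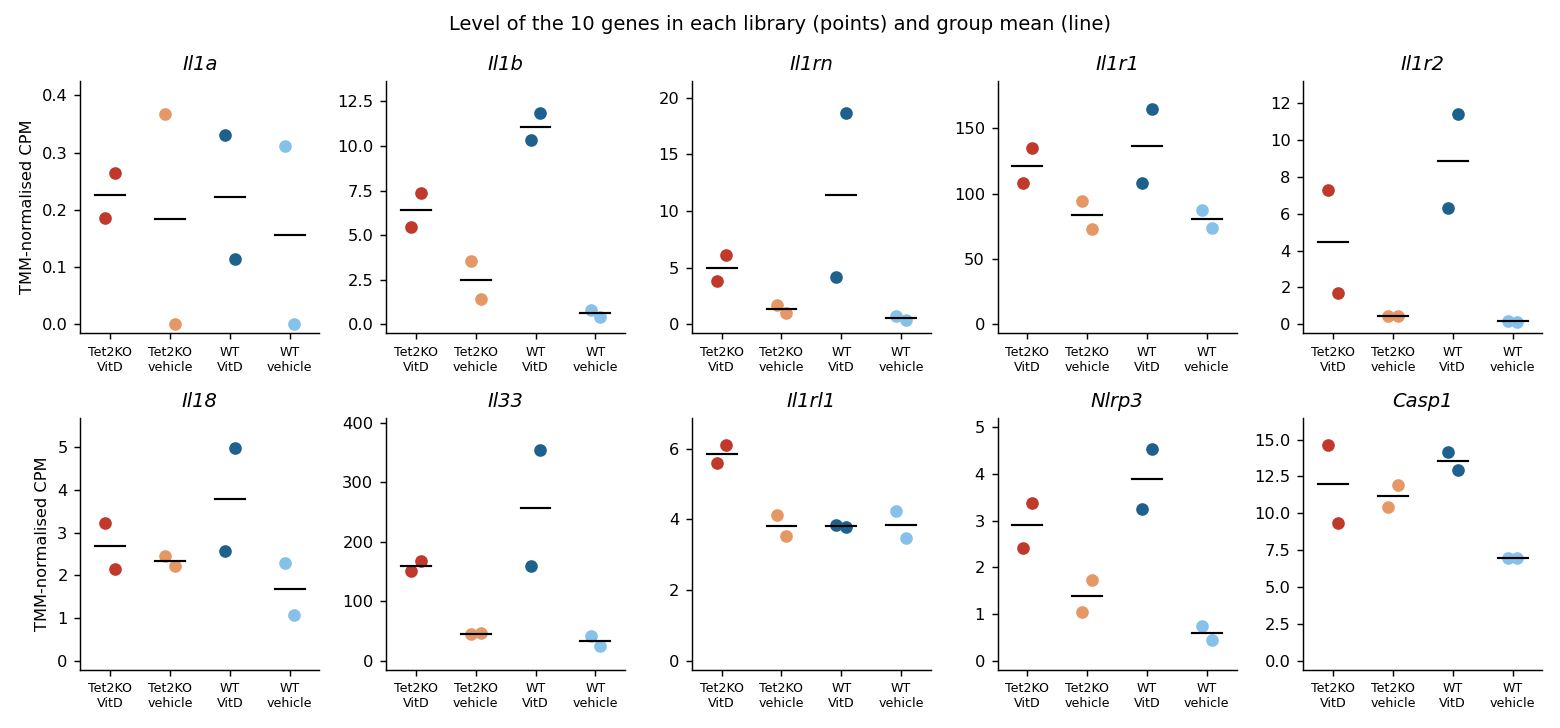
TMM-normalised CPM (y axis, linear, a separate scale per gene) of the 10 genes in Tet2KO VitD, Tet2KO vehicle, WT VitD and WT vehicle, with points for libraries and lines for group means. Il1b stands at 10.3 and 11.8 CPM in WT VitD against 0.81 and 0.40 CPM in WT vehicle, while Il1rl1 stays between 3.47 and 6.11 CPM in all 8 libraries.

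**Figure D2:**
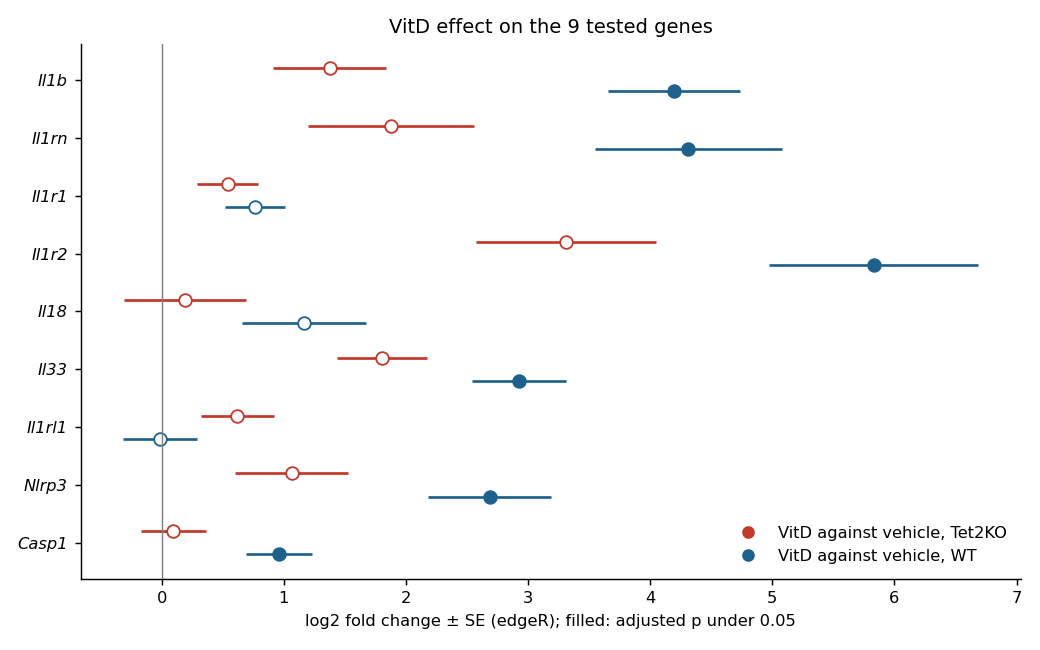
Log2 fold change of VitD against vehicle (x axis) with its standard error, for the 9 tested genes (y axis) in Tet2KO (red) and WT (blue), with filled points for an adjusted p under 0.05 in edgeR. The WT point lies to the right of the Tet2KO point for every gene except Il1rl1, at 0.62 in Tet2KO and -0.01 in WT.

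Il1a, which encodes IL-1α, was barely detected. Its raw counts were 3 and 6 in Tet2KO VitD, 6 and 0 in Tet2KO vehicle, 5 and 2 in WT VitD and 5 and 0 in WT vehicle. No difference between groups was detectable at this depth, and the antisense Gm14023 had 1 to 11 counts per library.

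Il1b, which encodes IL-1β, stood at 5.47 and 7.35 CPM in Tet2KO VitD, 3.56 and 1.40 CPM in Tet2KO vehicle, 10.3 and 11.8 CPM in WT VitD and 0.81 and 0.40 CPM in WT vehicle. The VitD libraries lay above the vehicle libraries in both genotypes, and the Tet2KO groups lay between the WT groups. Il1b rose 18.3-fold with VitD in WT (log2 4.19, SE 0.54, adjusted p = 0.00444), and its log2 fold change in Tet2KO was 1.38 (SE 0.463, adjusted p = 0.281). The WT call of Il1b held when any of the 8 libraries was left out.

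Il1rn, the receptor antagonist, stood at 3.85 and 6.11 CPM in Tet2KO VitD, 1.72 and 1.01 CPM in Tet2KO vehicle, 4.17 and 18.6 CPM in WT VitD and 0.75 and 0.40 CPM in WT vehicle. Replicate 2 of WT VitD was far above every other library, and replicate 1 of WT VitD lay within the range of Tet2KO VitD. Il1rn rose with VitD in WT by a log2 of 4.31 (SE 0.765, adjusted p = 0.0122). Without replicate 2 of WT VitD the value was 2.86 (adjusted p = 0.0852), and the call was also lost without either WT vehicle library (adjusted p = 0.0749 without replicate 1 and 0.0649 without replicate 2). In Tet2KO its log2 fold change was 1.88 (SE 0.683, adjusted p = 0.305).

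Il1r2, the decoy receptor, showed the largest fold change of the 9 tested genes with VitD in both genotypes. It had 7.27 and 1.67 CPM in Tet2KO VitD, 0.43 and 0.45 CPM in Tet2KO vehicle, 6.29 and 11.4 CPM in WT VitD and 0.19 and 0.11 CPM in WT vehicle. The 2 vehicle groups were near the detection limit, with 7 and 8 counts in Tet2KO and 3 and 2 counts in WT, and within Tet2KO VitD the replicates were 7.27 against 1.67 CPM. In WT the log2 fold change was 5.83 (SE 0.856, adjusted p = 0.007). The ratio of the summed counts was 61.0, with a 95% exact interval of 25.8 to 189 that covers counting error only. The WT call of Il1r2 was lost without WT vehicle replicate 1 (adjusted p = 0.0649) or replicate 2 (adjusted p = 0.0521). In Tet2KO the log2 fold change was 3.31 (SE 0.737, adjusted p = 0.13), and it became 1.92 without replicate 1 of Tet2KO VitD and 4.03 without replicate 2, where it was called (adjusted p = 0.00406).

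Il1r1, the signalling receptor, was abundant in every group. It stood at 108 and 135 CPM in Tet2KO VitD, 94.4 and 72.9 CPM in Tet2KO vehicle, 108 and 165 CPM in WT VitD and 87.2 and 73.7 CPM in WT vehicle. VitD libraries were above vehicle libraries in both genotypes, by far smaller factors than for Il1r2. The log2 fold change was 0.54 in Tet2KO (SE 0.247, adjusted p = 0.392) and 0.76 in WT (SE 0.247, adjusted p = 0.058). The WT difference of Il1r1 passed the threshold in DESeq2 (adjusted p = 0.0216) and in edgeR without the filter (adjusted p = 0.00671).

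Il33, an alarmin released by damaged cells, was among the most abundant of the 10 genes. It stood at 151 and 167 CPM in Tet2KO VitD, 45.0 and 46.5 CPM in Tet2KO vehicle, 159 and 355 CPM in WT VitD and 42.1 and 25.7 CPM in WT vehicle. Every VitD library was far above every vehicle library, and replicate 2 of WT VitD was the highest. Il33 rose 7.59-fold with VitD in WT (log2 2.92, SE 0.383, adjusted p = 0.00458), a call that held when any library was left out. In Tet2KO its log2 fold change was 1.80 (SE 0.367, adjusted p = 0.1). Endothelial markers summed to 4452 and 1327 CPM in Tet2KO VitD, 1772 and 1891 CPM in Tet2KO vehicle, 2805 and 2392 CPM in WT VitD and 1499 and 1403 CPM in WT vehicle. Fibroblast markers summed to 8281 and 9850 CPM in Tet2KO VitD, 9667 and 9579 CPM in Tet2KO vehicle, 10138 and 14554 CPM in WT VitD and 8307 and 7766 CPM in WT vehicle. Both sums were higher with VitD in WT and overlapped between treatments in Tet2KO. By gene, 7 of the 8 in each list had a log2 fold change above 0 with VitD in WT. Only 1 of the 8 in each list was called higher there, near the background of 10.6%. The part of these cells in the Il33 values was not tested.

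Il1rl1, which encodes the IL-33 receptor, did not follow its ligand. It stood at 5.59 and 6.11 CPM in Tet2KO VitD, 4.11 and 3.52 CPM in Tet2KO vehicle, 3.84 and 3.79 CPM in WT VitD and 4.23 and 3.47 CPM in WT vehicle. The Tet2KO VitD libraries were the highest, and the other 6 overlapped. The log2 fold change was 0.62 in Tet2KO (SE 0.298, adjusted p = 0.404) and -0.01 in WT (95% interval -0.70 to 0.67, adjusted p = 0.981). Mast cells and group 2 innate lymphoid cells are known carriers of this receptor, and marker sums of the second kind are given with those of T cells below. The summed level of 8 mast cell markers (7 passed the filter) was 83.3 and 100 CPM in Tet2KO VitD, 94.6 and 77.8 CPM in Tet2KO vehicle, 69.7 and 70.7 CPM in WT VitD and 125 and 108 CPM in WT vehicle. By gene the list was split, with 2 of the 7 called higher and 1 lower with VitD in WT (backgrounds 10.6% and 9.47%). In Tet2KO 0 of the 7 were called, where only 0.179% of all genes were called higher. At an unadjusted p under 0.05 in edgeR, 3 were higher there (8.65% of all genes) and 1 was lower. The part of mast cells in the Il1rl1 values was not tested.

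Nlrp3, the inflammasome sensor, stood at 2.42 and 3.39 CPM in Tet2KO VitD, 1.04 and 1.73 CPM in Tet2KO vehicle, 3.24 and 4.53 CPM in WT VitD and 0.75 and 0.46 CPM in WT vehicle. VitD and vehicle libraries did not overlap in either genotype. Nlrp3 rose 6.44-fold in WT (log2 2.69, SE 0.503, adjusted p = 0.0133), and its log2 fold change in Tet2KO was 1.06 (SE 0.463, adjusted p = 0.372). The WT call of Nlrp3 was lost without WT VitD replicate 2 (adjusted p = 0.123) and without WT vehicle replicate 1 (adjusted p = 0.0708) or replicate 2 (adjusted p = 0.0639).

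Casp1, the protease that matures IL-1β and IL-18, stood at 14.6 and 9.33 CPM in Tet2KO VitD, 10.4 and 11.9 CPM in Tet2KO vehicle, 14.2 and 12.9 CPM in WT VitD and 6.96 and 6.95 CPM in WT vehicle. The WT vehicle libraries were the lowest, and within Tet2KO the VitD and vehicle libraries overlapped. Casp1 rose by a log2 of 0.96 with VitD in WT (SE 0.268, adjusted p = 0.0384), and in Tet2KO the log2 fold change was 0.10 (SE 0.263, adjusted p = 0.884). The WT call of Casp1 was held in 2 of the 8 fits that each left out 1 library.

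Il18, the other caspase-1 substrate, was low and did not pass any test. It stood at 3.23 and 2.16 CPM in Tet2KO VitD, 2.45 and 2.23 CPM in Tet2KO vehicle, 2.58 and 4.98 CPM in WT VitD and 2.30 and 1.08 CPM in WT vehicle. Replicate 2 of WT VitD was the highest library, and the other 7 ran from 1.08 to 3.23 CPM. The log2 fold change was 0.19 in Tet2KO (SE 0.499, adjusted p = 0.876) and 1.17 in WT (SE 0.507, adjusted p = 0.127).

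When the library number range was added to the model, none of the 6 WT calls passed the adjusted threshold. In that fit the WT effect rests on the difference between the 2 Tet2KO VitD libraries, which lie in different ranges. Il1b had a log2 fold change of 4.62 (adjusted p = 0.0666), Il33 of 3.07 (adjusted p = 0.116), Il1r2 of 3.72 (adjusted p = 0.132), Il1rn of 4.98 (adjusted p = 0.183), Nlrp3 of 3.17 (adjusted p = 0.198) and Casp1 of 0.31 (adjusted p = 0.809). In that fit the estimates were similar in size for Il1b, Il33, Il1rn and Nlrp3, and smaller for Il1r2 and Casp1. The 2 Tet2KO VitD libraries also differed in cell markers, with endothelial sums of 4452 CPM in replicate 1 and 1327 CPM in replicate 2. These estimates therefore cannot tell range and treatment apart in WT. Within the lower number range, replicate 2 of Tet2KO VitD can be set against the 2 Tet2KO vehicle libraries. It stood above their mean by a factor of 4.49 for Il1rn, 3.82 for Il1r2, 3.66 for Il33, 2.97 for Il1b and 2.44 for Nlrp3, and below it for Il18 (0.92) and Casp1 (0.835). With 1 VitD library in that range, these ratios have no replicate check.

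**Figure D3:**
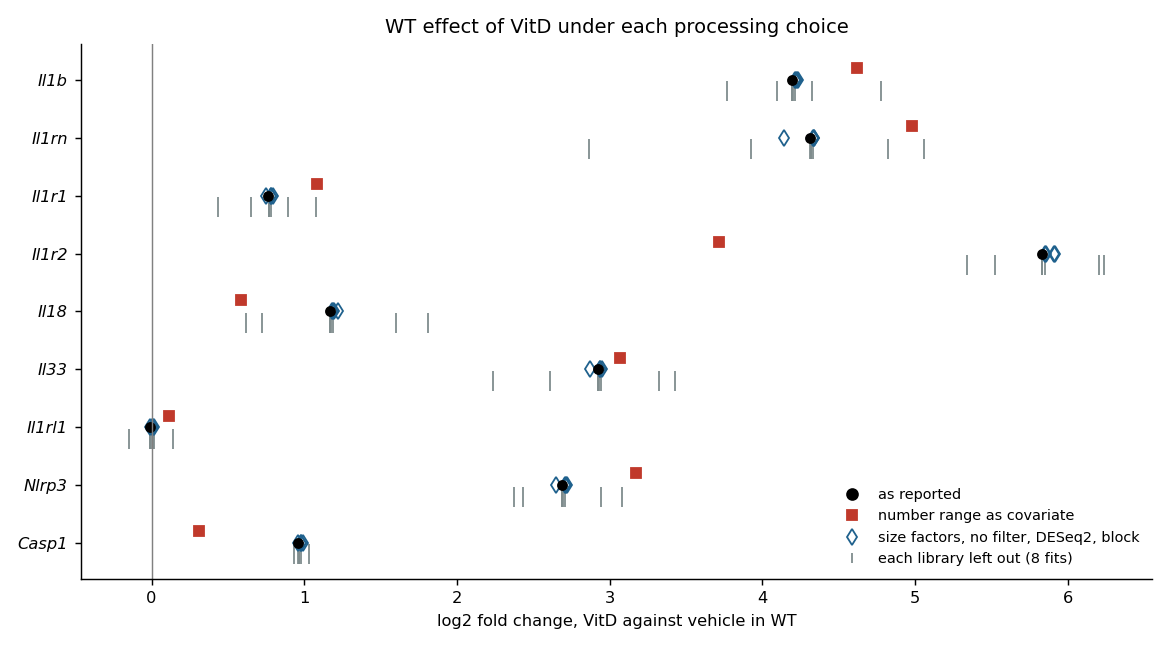
Log2 fold change of VitD against vehicle in WT (x axis) for the 9 tested genes (y axis) as reported (black), with number range as a covariate (red squares), with other normalisation, filter, tool or block (blue diamonds) and with each library left out (grey ticks). Il1r2 is at 5.83 as reported and at 3.72 with the range as a covariate, while Il33 is at 2.92 and 3.07.

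Sums of macrophage markers were higher with VitD without overlap in both genotypes, and sums of neutrophil markers in WT only. The sums of T and B cell markers were not higher with VitD without overlap in either genotype. The summed level of 12 macrophage and monocyte markers (12 passed the filter, none at 0) was 2696 and 1552 CPM in Tet2KO VitD, 758 and 911 CPM in Tet2KO vehicle, 2605 and 3147 CPM in WT VitD and 571 and 590 CPM in WT vehicle. With VitD, 2 of the 12 were called higher in Tet2KO (median log2 fold change 1.55) and 12 of the 12 in WT (median 2.38), against backgrounds of 0.179% in Tet2KO and 10.6% in WT. The 12 neutrophil markers, of which 9 were tested, summed to 39.4 and 25.3 CPM in Tet2KO VitD, 27.3 and 16.9 CPM in Tet2KO vehicle, 52.9 and 96.5 CPM in WT VitD and 17.0 and 14.5 CPM in WT vehicle, and with VitD 0 of them were called in Tet2KO by edgeR (3 at an unadjusted p under 0.05) and 5 were called higher in WT, with Cxcr2 and Mmp8 tested only through their VitD libraries. In Tet2KO the neutrophil sums overlapped between treatments, and 6 of the 9 tested markers had a log2 fold change above 0. The neutrophil marker Ly6g had no count in 5 of the 8 libraries. T cell and group 2 innate lymphoid cell markers summed to 91.2 and 69.9 CPM in Tet2KO VitD, 85.2 and 154 CPM in Tet2KO vehicle, 91.9 and 84.7 CPM in WT VitD and 188 and 74.2 CPM in WT vehicle. Rora alone gave 57.8 to 111 CPM of these sums. The 11 tested markers of that list had a median log2 fold change with VitD of -1.58 in Tet2KO and -1.21 in WT. One of them, Rag1, was over the filter limit only in vehicle libraries, at 37.4 CPM in replicate 1 of WT vehicle and 0.06 CPM in replicate 2. B cell markers were at 6.15 to 15.1 CPM in all libraries. Smooth muscle markers summed to 20323 and 28046 CPM in Tet2KO VitD, 29774 and 27664 CPM in Tet2KO vehicle, 22484 and 15169 CPM in WT VitD and 28927 and 30000 CPM in WT vehicle. Replicate 2 of WT VitD, the highest library for Il1rn, Il1r1, Il1r2, Il18, Il33, Il1b and Nlrp3, was also the highest in markers of neighbouring tissue. Its skeletal muscle markers summed to 441 CPM, with 103 CPM in replicate 1 of WT VitD and 13.8 to 33.4 CPM elsewhere. Its mesothelial markers summed to 202 CPM, with 89.6 CPM in replicate 1 of WT VitD and 29.6 to 108 CPM elsewhere. With VitD in WT, 7 of the 7 tested skeletal muscle markers and 4 of the 6 mesothelial markers were called higher (background 10.6%). Of the former, Myh1 was tested only through its VitD libraries. In Tet2KO 0 of either list were called (background 0.179% higher). The part of these cells and tissues in the values of the 10 genes was not tested. In RNA from whole tissue, more cells of a type and more RNA per cell cannot be told apart.

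Between genotypes under VitD, the IL-1 genes were mostly at lower values in Tet2KO than in WT, and none passed the test. Both WT VitD libraries but only replicate 1 of Tet2KO VitD lie in the higher number range, so range and genotype are partly mixed here. Il1b had 5.47 and 7.35 CPM in Tet2KO VitD against 10.3 and 11.8 CPM in WT VitD, without overlap (21.6% of all genes tested were lower without overlap). Its log2 fold change was -0.79 (SE 0.44, adjusted p = 0.506). Il1rl1 was the single gene higher without overlap (22.2% of all genes), at a log2 difference of 0.62 (SE 0.299, adjusted p = 0.481). For the other 7 tested genes the libraries of the 2 genotypes overlapped, with log2 fold changes from -1.19 for Il1rn to -0.17 for Il1r1. By edgeR and by DESeq2, 0 of the 10 genes were called, against a background of 0% in edgeR, and 0 had an unadjusted p under 0.05 in edgeR, where 10.6% of all genes had one. Without replicate 1 of Tet2KO VitD, Il1r2 was called lower (log2 -2.42, adjusted p = 0.0461).

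Under vehicle the values in Tet2KO were mostly the higher ones, with 6 of the 10 genes higher in Tet2KO than in WT without overlap between libraries (14.3% of all genes tested). They were Il1b, Il1rn, Il1r2, Il33, Nlrp3 and Casp1, and this comparison shares its WT vehicle libraries with that of VitD and vehicle in WT. Il1r2 was under the filter limit in every vehicle library and was tested only through its VitD libraries. It had 7 and 8 counts in Tet2KO vehicle and 3 and 2 counts in WT vehicle. Il1b had 3.56 and 1.40 CPM in Tet2KO vehicle against 0.81 and 0.40 CPM in WT vehicle (log2 2.03, SE 0.541). Casp1 had 10.4 and 11.9 CPM in Tet2KO vehicle against 6.96 and 6.95 CPM in WT vehicle (log2 0.68, SE 0.268). None was called by edgeR or DESeq2, with an adjusted p of 1 for each of the 9 in edgeR (0% of all genes called). At an unadjusted p under 0.05 there were 3, Il1b, Casp1 and Nlrp3, where 1.86% of all genes were higher. In edgeR without the filter on low counts Il1b was called (log2 2.04, adjusted p = 0.00403). The macrophage marker sums above were also higher in Tet2KO vehicle than in WT vehicle, and their part in these values was not tested.

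The difference between the VitD effects of the 2 genotypes was tested as an interaction, Tet2KO minus WT. It was below 0 for 8 of the 9 tested genes, with Il1rl1 as the exception at 0.63. Il1b had the most negative value, -2.82 (SE 0.699, 95% interval -4.40 to -1.23), with an unadjusted p of 0.00302 and an adjusted p of 0.794. Il1r2 followed at -2.52 (SE 1.17), Il1rn at -2.44 (SE 1.01), Nlrp3 at -1.62 (SE 0.676), Il33 at -1.12 (SE 0.507), Il18 at -0.97 (SE 0.71) and Casp1 at -0.86 (SE 0.375). By edgeR 0 of the 10 genes were called (0% of all genes) and 4 had an unadjusted p under 0.05, Il1b, Il1rn, Nlrp3 and Casp1, where 2.82% of all genes were lower. DESeq2 called 0, and edgeR without the filter called Il1b, Il1rn and Il33. These values include the vehicle levels, so the higher vehicle levels in Tet2KO and the lower VitD levels in Tet2KO both enter them. The number range enters them too, because both WT VitD libraries but only replicate 1 of Tet2KO VitD lie in the higher range. Genotype and range are thus partly mixed in the interaction.

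Levels of different genes were compared as CPM per kilobase of exon. Il33 led in Tet2KO VitD (mean 55.2), Tet2KO vehicle (15.9) and WT VitD (89.1), ahead of Il1r1 at 19.1, 13.1 and 21.5 in these groups. In WT vehicle Il1r1 (13.7 and 11.6 in its libraries) and Il33 (14.6 and 8.92) overlapped. Casp1 was next in every group, at 7.99 in Tet2KO VitD, 7.46 in Tet2KO vehicle, 9.04 in WT VitD and 4.65 in WT vehicle. Il1b came next in both VitD groups, at 3.36 in Tet2KO and 5.81 in WT, but its libraries overlapped those of Il18 and Il1r2 in Tet2KO VitD and those of Il1r2 in WT VitD. Il1a was lowest in every group by its mean, at 0.0787 to 0.114, and in WT vehicle Il1r2 had the same mean of 0.0787.

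Ratios within a library show how the balance of partners differed. On the per-kilobase scale the ratio of decoy to signalling receptor, Il1r2 to Il1r1, was 0.224 and 0.0414 in Tet2KO VitD, 0.0152 and 0.0204 in Tet2KO vehicle, 0.194 and 0.231 in WT VitD and 0.00713 and 0.00515 in WT vehicle. It was higher in every VitD library than in any vehicle library, and stayed below 1 throughout. The ratio of antagonist to agonist, Il1rn to Il1b, was 0.243 and 0.287 in Tet2KO VitD, 0.166 and 0.248 in Tet2KO vehicle, 0.139 and 0.542 in WT VitD and 0.318 and 0.345 in WT vehicle. VitD and vehicle libraries overlapped in that ratio in both genotypes. The ratio of receptor to ligand, Il1rl1 to Il33, was 0.0155 and 0.0153 in Tet2KO VitD, 0.0382 and 0.0317 in Tet2KO vehicle, 0.0101 and 0.00447 in WT VitD and 0.042 and 0.0565 in WT vehicle. It was lower in every VitD library than in any vehicle library.

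**Figure D4:**
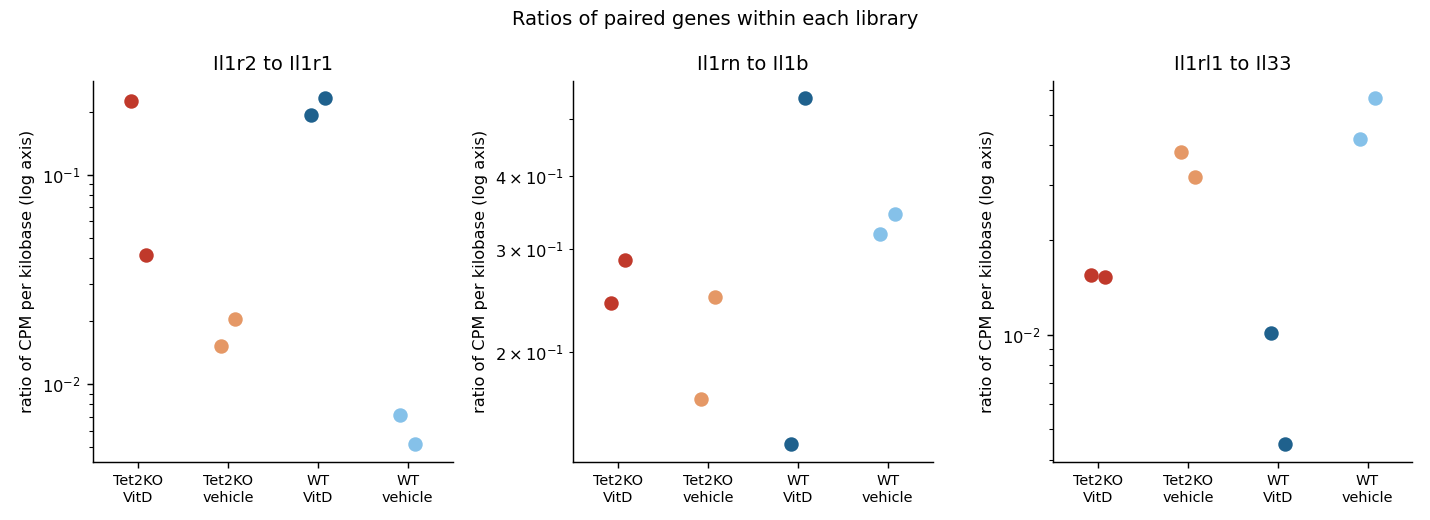
Ratio of CPM per kilobase within each library (y axis, log scale) for Il1r2 to Il1r1, Il1rn to Il1b and Il1rl1 to Il33 in the 4 groups, 1 point per library. The decoy to signalling receptor ratio separates VitD from vehicle libraries, with replicate 2 of Tet2KO VitD at 0.0414, while the antagonist to agonist ratio overlaps.

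The genes whose log2 CPM followed these members most closely over the 8 libraries were listed as a description, since all of them share the same split by treatment and the same libraries. Il1b was closest to Rtp4 (Pearson r = 0.992), Pyhin1 (0.991) and Slfn1 (0.989), and 357 genes had an r above 0.9 with it. Il1r2 was closest to Serpina3c (0.998), Lyz2 (0.996) and Ccl6 (0.995), among 1340 genes above 0.9. Lyz2 encodes a lysozyme of myeloid cells and is one of the macrophage markers summed above. Il33 was closest to Smap2 (0.994), Prep (0.993) and the monocyte chemokine receptor gene Ccr2 (0.992), among 788 genes. Nlrp3 was closest to Gpr65 (0.99), Klra2 (0.987) and Laptm5 (0.986), among 386 genes. Serpina3c and Klra2 belong to families of near-identical genes, so their counts are uncertain.

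The wider pathway was described with 78 other genes, of which 66 were tested. Among the 13 other IL-1 family ligands and receptors, 6 were tested and 3 rose with VitD in WT (background 10.6%), all of them receptors of the chromosome 1 cluster. Among these, Il18rap passed the filter on low counts only through the VitD libraries, and without it 2 of the remaining 5 were called. Il1rl2, the IL-36 receptor, had 23.4 and 10.9 CPM in Tet2KO VitD, 4.72 and 6.53 CPM in Tet2KO vehicle, 13.8 and 21.7 CPM in WT VitD and 2.86 and 3.82 CPM in WT vehicle (WT log2 2.41, adjusted p = 0.0117). Il18rap and Il18r1, the chains of the IL-18 receptor, rose by a log2 of 3.89 (adjusted p = 0.0132) and 2.96 (adjusted p = 0.0162) in WT. Of the 6 neighbours in that cluster, Il1rl2 and Il18r1 rose with VitD in WT, as did Il1r2 and Il18rap, whose testing depended on their VitD levels, while Il1r1 and Il1rl1, which lie between them, did not pass the test. The shared co-receptor gene Il1rap had a log2 fold change of 0.34 in WT (adjusted p = 0.426). The other 7, among them the IL-36 ligand genes, had 0 to 16 counts per library and were not tested.

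Of 22 other inflammasome genes, 19 were tested, and with VitD in WT 9 rose and 1 fell, with a median log2 fold change of 1.32. The background over all genes was 10.6% higher and 9.47% lower. Casp4, the sensor protease of the non-canonical inflammasome that lies next to Casp1 (chr9:5308828-5336783), had 33.0 and 17.6 CPM in Tet2KO VitD, 12.8 and 9.44 CPM in Tet2KO vehicle, 29.1 and 33.1 CPM in WT VitD and 8.51 and 6.49 CPM in WT vehicle. It rose by a log2 of 2.05 in WT (adjusted p = 0.00925). The pore-former gene Gsdme rose by 1.81 (adjusted p = 0.0125) and Mefv, which encodes the sensor pyrin, by 3.94 (adjusted p = 0.0169) from a WT vehicle level of 0.12 and 0.06 CPM. Txnip, a thioredoxin-binding protein reported to bind NLRP3, fell by 0.71 on the log2 scale (adjusted p = 0.0466). Gsdmd, whose product caspase-1 cuts to form the membrane pore, had a log2 fold change of 0.47 in WT (adjusted p = 0.122).

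The 23 genes of the signalling chain below the receptor, all tested, moved little and in both directions. With VitD in WT 2 rose and 3 fell, shares close to the background of 10.6% higher and 9.47% lower. The median log2 fold change was 0.28, with 18 of the 23 above 0. The adaptor Myd88 rose by 0.76 (adjusted p = 0.0214) and the kinase gene Irak4 by 0.90 (adjusted p = 0.028). The kinase-like gene Irak2 fell by 1.09 on the log2 scale (adjusted p = 0.011), the IκB kinase gene Ikbkb fell by 0.73 (adjusted p = 0.026) and the ubiquitin ligase gene Traf6 fell by 0.68 (adjusted p = 0.0449).

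Genes known to be induced by IL-1, although also by other signals, were mostly higher with VitD. Of 20 such genes 18 were tested, but 5 of these (Il6, Cxcl2, Cxcl3, Cxcl5 and Csf3) passed the filter on low counts only through the VitD libraries, so their direction was fixed by the filter. Of the other 13, 4 rose with VitD in Tet2KO and 11 in WT, against backgrounds of 0.179% and 10.6% of all genes, and 0 fell. Their median log2 fold change was 1.83 in Tet2KO and 3.49 in WT. At an unadjusted p under 0.05 there were 10 of the 13 in Tet2KO, where 8.65% of all genes were higher. Mmp13, counted among the 11 in WT and these 10, was over the filter limit in 4 VitD libraries and 1 vehicle library. Its testing thus also depended on its VitD levels. Over all 18 the medians were 2.24 in Tet2KO and 3.60 in WT, and both were the same when Cxcl3, which had no count in any vehicle library, was set to its lower bound against 3 counts over the group. Ptgs2, the inducible cyclooxygenase, had 160 and 112 CPM in Tet2KO VitD, 20.6 and 24.5 CPM in Tet2KO vehicle, 125 and 140 CPM in WT VitD and 12.7 and 10.7 CPM in WT vehicle. Every VitD library was far above every vehicle library in both genotypes. Ptgs2 rose by a log2 of 2.59 in Tet2KO (adjusted p = 0.00405) and of 3.50 in WT (adjusted p = 0.000728). The iron-trapping protein gene Lcn2 rose by 4.18 in Tet2KO (adjusted p = 0.0136) and 6.05 in WT (adjusted p = 0.00187), the monocyte chemokine gene Ccl2 by 3.01 (adjusted p = 0.0236) and 4.57 (adjusted p = 0.00203), and the stromelysin gene Mmp3 by 2.02 (adjusted p = 0.0171) and 2.31 (adjusted p = 0.00273), each in Tet2KO and then in WT. These 4 calls in Tet2KO were all lost without Tet2KO vehicle replicate 1 or replicate 2, and 1 response gene was called when either WT vehicle library was left out. In the other 3 lists 0 genes were called in Tet2KO by edgeR, with 3, 4 and 3 at an unadjusted p under 0.05 in the order of the lists above, while DESeq2 called 1 other IL-1 family gene and 2 other inflammasome genes. With number range as a covariate, 4 response genes and 0 genes of the other 3 lists were called in WT.

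**Figure D5:**
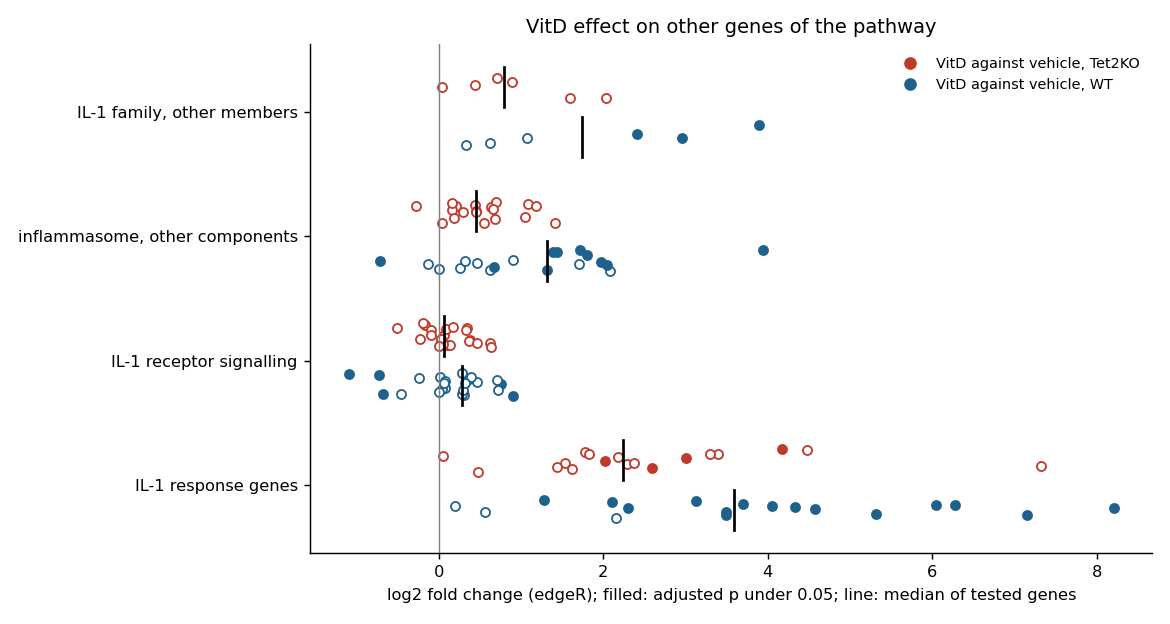
Log2 fold change of VitD against vehicle (x axis) for the tested genes of 4 pathway lists (y axis) in Tet2KO (red) and WT (blue), with filled points for an adjusted p under 0.05 and a line at the median. The response genes have medians of 2.24 in Tet2KO and 3.60 in WT, and the signalling genes of 0.07 and 0.28.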

How the data were processed

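The authors deposited raw read counts per gene symbol for 8 libraries. Per the labels' protocols they came from poly-A enriched, stranded libraries of total RNA. The submitters' processing notes name Trimmomatic 0.39, STAR 2.7.8a, featureCounts 2.0.2 and mm10. The annotation release, strand setting and multi-mapping rule are not stated there. Counts were fitted with edgeR 4.0.16 (R 4.3.3) using TMM factors, filterByExpr (16194 genes kept, a cutoff of about 0.6 CPM) and quasi-likelihood fits of 4 group means over all 8 libraries (4 residual degrees of freedom). The procedure was also run on simulated counts with the same spread set for every gene. That run does not cover genes whose replicates differ more widely than this setting. The 5 contrasts were adjusted by the Benjamini-Hochberg method over all genes. Each SE is the log2 fold change divided by the root of F. Alternatives were DESeq2 1.42.0 size factors, DESeq2, no filter, a replicate block, the library number range and leaving out each library. The genes and lists were chosen with earlier results of these data known. All 10 genes are named, with up to 3 called genes per pathway list ranked by p in WT, genes called in another contrast, and the 3 most similar genes for Il1b, Il1r2, Il33 and Nlrp3. Il1rap, Gsdmd and the genes that passed the filter only through VitD libraries were named after their values were seen. Coordinates are from GENCODE M21 and promoter windows from RefSeq.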

Additional observations from a re-analysis of the deposited data

How the results depend on the processing

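The count of the 10 genes called with VitD in WT was 6, Il1r2 among them, and 0 with number range as a covariate (6 at an unadjusted p under 0.05). It ranged from 2 to 7 when each library was left out, with 3 without WT VitD replicate 2 and 2 without either WT vehicle library. In Tet2KO the count was 0, and 4 without the filter on low counts, 2 in DESeq2 and 0 to 2 with a library left out, the 2 being Il1r2 and Il33 without Tet2KO VitD replicate 2. For Tet2KO against WT it was 0 under both treatments, 1 without the filter under vehicle, 0 to 1 under VitD with a library left out, and 3 without the filter for the interaction. Il1b and Il33 kept their WT call in 8 of 8 fits without a library, Il1r2 in 6, Il1rn and Nlrp3 in 5 each and Casp1 in 2. A fit that leaves a group with 1 library assumes that it varies like the others.

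Some small differences changed sign. With the range as a covariate, log2 values in Tet2KO were -0.12 for Il18 and -0.26 for Casp1, and Casp1 under VitD, Tet2KO against WT, was 0.11. Il1rl1 in WT was 0.0061 with DESeq2 size factors, 0.018 without the filter, 0.0065 in DESeq2 and 0.12 with the range. With a library left out, values ran from -0.11 to 0.46 for Il18 and -0.25 to 0.39 for Casp1 in Tet2KO, and from -0.15 to 0.14 for Il1rl1 in WT. For Tet2KO against WT under VitD they ran from -1.93 to 0.26 for Il1rn, -0.47 to 0.16 for Il1r1, -0.92 to 0.053 for Il18, -1.19 to 0.0019 for Il33 and -0.55 to 0.11 for Casp1. Under vehicle they ran from -0.14 to 0.23 for Il1r1 and -0.15 to 0.14 for Il1rl1, and in the interaction from -0.54 to 0.11 for Il1r1. The cause was not tested.

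The counts over all genes and over the pathway lists were added after seeing the data. Over all genes they were 32 with VitD in Tet2KO (1225 without the filter, 439 in DESeq2, 20 with the range, 0 to 1898 with a library left out) and 3251 in WT (58 with the range, 140 to 4946). They were 0 for Tet2KO against WT under VitD (610, 89 and 16 without the filter, in DESeq2 and with the range, 0 to 674), 0 under vehicle (164 without the filter, 13 in DESeq2) and 0 for the interaction (403, 15 and 7, 0 to 37). Of the pathway lists, the counts with a library left out were 0 to 4, 0 to 14, 0 to 6 and 6 to 15 in WT and 0 to 2, 0 to 3, 0 to 1 and 0 to 10 in Tet2KO, in the order other family genes, inflammasome, signalling and response genes. The 0 response genes in Tet2KO came without either Tet2KO vehicle library. Without the filter 2, 3 and 14 family, inflammasome and response genes were called in Tet2KO, and in DESeq2 1, 2 and 10.

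Same-numbered libraries did not deviate together (correlations of deviations from -0.115 to 0.138 over 6 pairs of groups), so the numbers were not taken to pair them. The replicate block left 5 of the 10 genes called with VitD in WT, losing Casp1 (log2 0.96, adjusted p = 0.054), and changed no other call of these genes. Il1a, Il1r2 in vehicle and Nlrp3 are limited by depth, with at most 8 counts per vehicle library for Il1r2.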
